A study of Mus musculus with 12 samples.

Results

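Transcripts of 10 genes of the unfolded protein response and the integrated stress response were followed in 12 mouse samples given as liver. The members were chosen by symbol among the 35275 genes of the deposited table: 5 genes induced by unfolded proteins in the endoplasmic reticulum (Hspa5, Xbp1, Dnajb9, Herpud1 and Sdf2l1) and 5 of the Atf4 branch (Atf4, Ddit3, Trib3, Asns and Chac1). All 10 passed the filter on low values. The 4 groups held 3 samples each, which the series calls biological replicates. They were labelled Hnf4a liver knockout on a high fat diet (KO HFD), wild type on a high fat diet (WT HFD), Hnf4a liver knockout on vivarium chow (KO chow) and wild type on vivarium chow (WT chow). The question, from the series title, is what the diet and the loss of Hnf4a, a nuclear receptor of hepatocytes, do to liver transcripts. The labels name no Cre driver, strain, sex, age or length of feeding for any group.

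The endoplasmic reticulum folds the proteins that a cell secretes, and hepatocytes secrete most plasma proteins. When unfolded proteins build up, 3 membrane sensors respond: Ire1 (gene Ern1), which splices Xbp1 mRNA into the form that encodes the active factor, Atf6, which is cut to release a transcription factor, and Perk (gene Eif2ak3), which phosphorylates the initiation factor eIF2. Other kinases phosphorylate eIF2 when amino acids or haem run short, and translation of Atf4 then increases. Atf4 turns on genes of amino acid synthesis and transport, while its partner Chop (gene Ddit3) is linked to cell death under prolonged stress. Gene-level values do not show Xbp1 splicing or Atf4 translation, and neither was measured here.

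Hnf4a mRNA did not follow the labels. It was at 98.8 to 138 FPKM in KO HFD and 116 to 133 FPKM in WT HFD, and at 130 to 158 FPKM in KO chow, against 126, 75.8 and 0.0973 FPKM in WT chow 1 to 3. No deleted exon is named, so a gene-level value may miss a deletion, and groups are called KO and WT here only as labelled. Libraries WT chow 2 and WT chow 3 stood apart. Their median correlation with the other libraries over all genes was 0.806 and 0.576, against 0.948 to 0.979 for the remaining 10. WT chow 3 also went against its tissue label: 6 hepatocyte markers summed to 28.7 FPKM there, against 20142 FPKM in WT chow 2 and 32051 to 62004 FPKM elsewhere, while 6 brown adipocyte markers summed to 13446 FPKM, against 22.3 to 121 FPKM elsewhere. Comparisons with WT chow are therefore given with all 12 libraries and with the 10 left without this pair. In the other comparisons a difference is the same with 12 and with 10 and its error is not, and intervals are from the 10. The 3 KO HFD libraries carried pancreatic acinar transcripts, with 8 markers summing to 45.2 to 78.0 FPKM and none of them at 0, against 0 to 5.03 FPKM with 5 to 8 of 8 at 0 elsewhere. The 4 Paneth markers summed to 4.40 to 12.7 FPKM in KO HFD, against 0 to 1.05 FPKM elsewhere, and the 5 heart muscle markers to 0.0706 to 0.216 FPKM, against 4.58 to 26.3 FPKM elsewhere. Between 15705196 and 20311766 reads per library lay on genes.

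The promoters of the members were searched for exact matches to elements for which these pathways are known. A window from 250 bases before to 50 bases after the RefSeq start site (GRCm38.p6) was searched on both strands in 32851 promoters, and all 10 members had one. The endoplasmic reticulum stress element, CCAAT and CCACG with 9 bases between them, which Atf6 binds with NF-Y, was found in 0.119% of promoters and in 1 member, Hspa5. Its shorter form, ATTGG and CCACG with 1 base between them, was found in 0.0365% of promoters and in 1 member, Herpud1. The amino acid response element of Atf4 targets, TGATGNAA, was found in 3.97% of promoters and in 4 members: Asns, Chac1, Trib3 (after the start site) and Herpud1. The Xbp1 element TGACGTGG was found in 0.676% of promoters and in 0 members. The sites before the start are printed 5' to 3' on the strand of the gene, so the Trib3 match is not among them. Capitals mark the fixed letters of each element, read on the opposite strand in Chac1 and in the second Herpud1 site.
Hspa5, stress element: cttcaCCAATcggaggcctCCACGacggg
Herpud1, short stress element: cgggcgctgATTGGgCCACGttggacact
Herpud1, amino acid response element: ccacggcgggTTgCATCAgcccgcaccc
Asns, amino acid response element: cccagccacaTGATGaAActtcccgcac
Chac1, amino acid response element: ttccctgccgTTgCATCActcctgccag
The sites lie at chr2:34772020-34772048 (plus strand, Hspa5), chr8:94386368-94386396 and chr8:94386307-94386334 (plus strand, Herpud1), chr6:7693215-7693242 (minus strand, Asns) and chr2:119351039-119351066 (plus strand, Chac1). The deposited table starts Hspa5 and Asns upstream of the RefSeq site, so their printed bases fall inside the deposited gene models. The log2 levels of Hspa5 and Herpud1, which hold the stress elements, had r = -0.19 over 10 libraries and r = 0.33 over all 12. Those of Asns and Chac1, with the same element at different distances from the start, had r = 0.11 over 10 and r = -0.00455 over 12. These are matches of letters only, and elements with a changed letter or outside the window would not be found.

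The unfolded protein genes were the more abundant set. Mean levels over the 10 libraries ran from Hspa5 at 221 FPKM through Herpud1 at 187, Xbp1 at 133, Atf4 at 44.0, Dnajb9 at 29.3, Sdf2l1 at 24.3, Ddit3 at 9.41, Asns at 7.24 and Trib3 at 4.73 to Chac1 at 2.64 FPKM. Of neighbours in this order, only Xbp1 (91.6 to 166 FPKM) and Atf4 (30.2 to 64.9 FPKM) had ranges that did not overlap. The lowest members still rested on reads: Chac1 had 33 to 228 reads per library and Asns 24 to 1794. No member passed the threshold in any of 5 comparisons with 12 libraries (limma on log2(FPKM + 1), Benjamini-Hochberg adjusted p under 0.05 over 12251 genes). In the fit with 10 libraries 1 call was made, Dnajb9, lower in KO HFD than in KO chow.

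**Figure D1:**
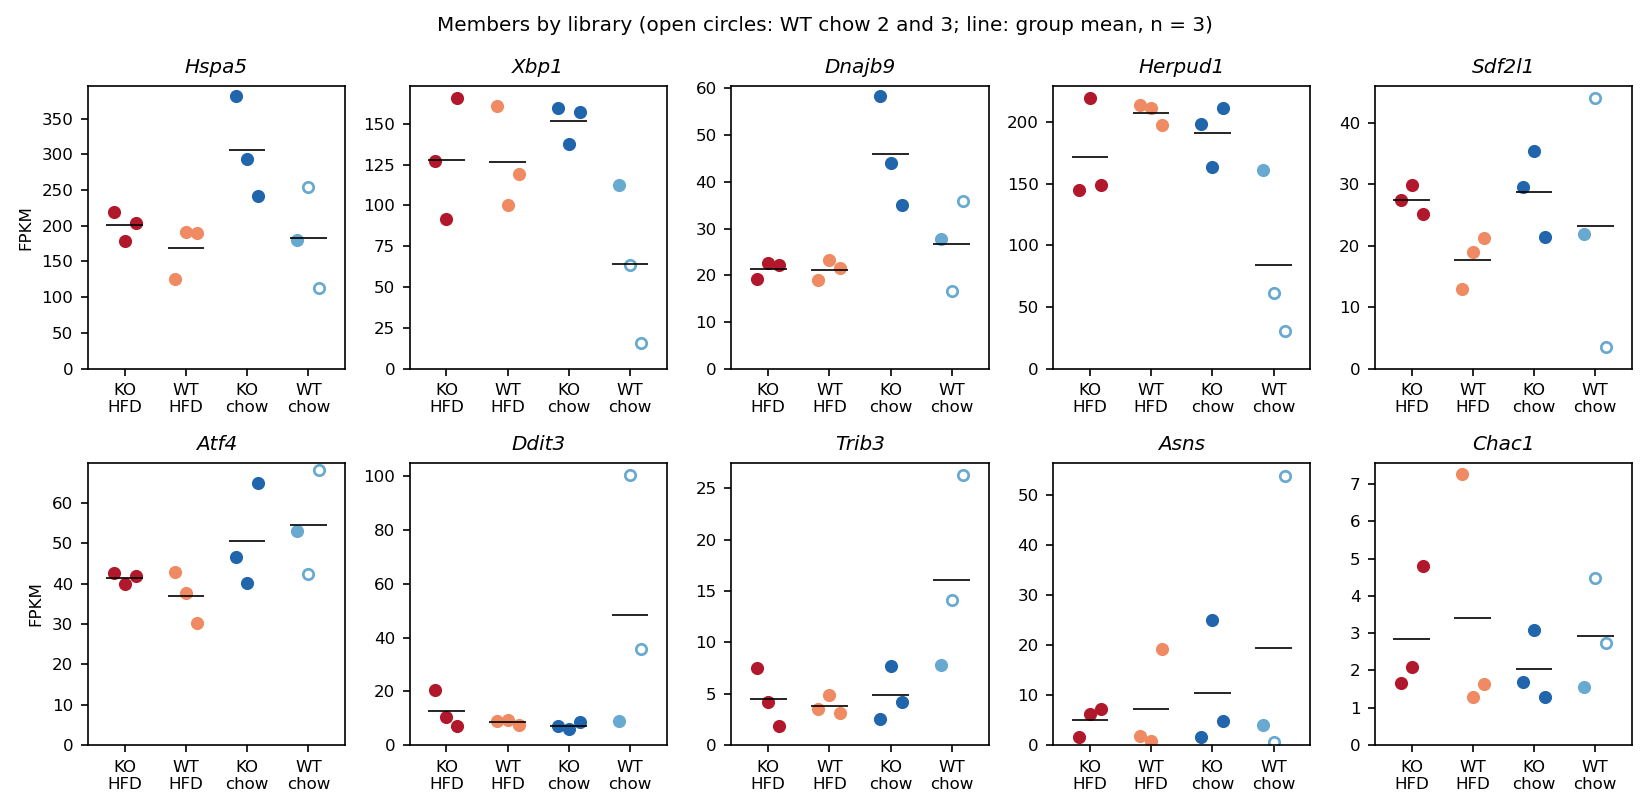
FPKM of each member in every library, by group from KO HFD to WT chow, with group means as lines (n = 3 each) and WT chow 2 and 3 as open circles. The 4 highest Dnajb9 libraries are KO chow 1 to 3 and WT chow 3, and Asns spans 0.632 to 53.9 FPKM with no group apart.

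Dnajb9 was lower on the high fat diet in KO livers with 10 libraries. It encodes ERdj4, a J-domain co-chaperone that recruits Hspa5 to Ire1 and to proteins bound for degradation, and it stood at 19.3, 22.6 and 22.2 FPKM in KO HFD 1 to 3, against 58.4, 44.1 and 35.1 FPKM in KO chow 1 to 3. The groups did not overlap, and the KO HFD mean was 0.466 of the KO chow mean (21.4 ± 1.80 FPKM against 45.9 ± 11.8 FPKM, SD, n = 3 each). Dnajb9 in WT HFD, at 18.9, 23.2 and 21.5 FPKM, lay with KO HFD, and WT chow 1 held 27.7 FPKM. The 3 KO chow libraries were thus the highest of the 10. With 10 libraries the log2 difference between KO HFD and KO chow was -1.04 (SE 0.18, 95% interval -1.45 to -0.63, adjusted p = 0.0306). With 12 libraries the same difference had an SE of 0.29 and an adjusted p of 0.649. The same 6 libraries give the difference in both fits, and only the estimate of the spread changed. Among all genes, 7.76% passed in this comparison with 10 libraries (6.24% lower, 1.52% higher), so 1 of 10 members is close to the background. With 12 libraries 0.155% passed, all higher in KO HFD, and 1 member, Dnajb9, had an unadjusted p under 0.05, as did 7.54% of genes. A fit of these 6 libraries alone called 0 members and 20 genes (0.163% of all, 3033 with an unadjusted p under 0.05), with an adjusted p of 0.101 for Dnajb9.

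Hspa5 encodes BiP, the main Hsp70 chaperone of the endoplasmic reticulum and the protein that holds the sensors inactive. It was at 219, 179 and 204 FPKM in KO HFD, against 382, 294 and 242 FPKM in KO chow. The groups did not overlap, with a KO HFD mean of 200.6 ± 20.1 FPKM and a KO chow mean of 306 ± 70.9 FPKM (SD, n = 3 each). WT HFD held 125, 191 and 190 FPKM, and the libraries of WT chow 181, 254 and 113 FPKM. The log2 difference between KO HFD and KO chow was -0.59 (10 libraries, SE 0.22, 95% interval -1.08 to -0.09, adjusted p = 0.115), which missed the threshold. Hspa5 and Dnajb9 were the 2 of 10 members whose KO HFD and KO chow libraries did not overlap. Across all genes 31.5% did not overlap here (21.6% lower, 9.98% higher), so this count is no larger than the background. The exact two-sided permutation p was 0.1 for both genes, the smallest that 3 libraries against 3 allow.

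The remaining 3 unfolded protein genes did not separate by diet in KO. Sdf2l1, an endoplasmic reticulum protein that works with J-domain co-chaperones of Hspa5, was at 27.4, 29.8 and 25.1 FPKM in KO HFD, inside the 29.5, 35.3 and 21.4 FPKM of KO chow (log2 difference -0.040, 95% interval -0.53 to 0.45 with 10 libraries). Xbp1 was at 127, 91.6 and 166 FPKM in KO HFD and 160, 137 and 157 FPKM in KO chow (-0.28, -0.81 to 0.26). Herpud1, a membrane protein that helps assemble the complex which moves misfolded proteins to the proteasome, was at 145, 220 and 149 FPKM in KO HFD and 198, 164 and 212 FPKM in KO chow (-0.18, -0.59 to 0.24). All 3 intervals include 0, and none reaches the -1.04 of Dnajb9.

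The rest of the machinery was read against the same diet comparison. Of 16 chaperones and folding enzymes, 2 were lower in KO HFD than in KO chow with 10 libraries and 0 higher, where 6.24% of all genes were lower and 1.52% higher. The list had a median log2 difference of -0.23, against -0.059 for all genes tested. Hyou1, an Hsp70-like exchange factor for Hspa5, was at 16.9, 13.6 and 20.1 FPKM in KO HFD, against 58.1, 39.1 and 26.3 FPKM in KO chow (log2 difference -1.18, SE 0.27, adjusted p = 0.0396). Hsp90b1, the Hsp90 of the endoplasmic reticulum, was at 93.5, 93.1 and 82.9 FPKM in KO HFD, against 164, 155 and 126 FPKM in KO chow (-0.71, SE 0.15, adjusted p = 0.0369). Neither gene's groups overlapped, and 21.6% of all genes were lower in KO HFD without overlap. The most abundant of the list, Calr and P4hb, a lectin chaperone and a protein disulfide isomerase, did not pass: Calr averaged 379 ± 39.4 FPKM in KO HFD and 386 ± 51.8 FPKM in KO chow, and P4hb 374 ± 19.5 FPKM and 446 ± 35.0 FPKM in the same order (SD, n = 3 each).

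Of 15 genes of endoplasmic reticulum-associated degradation, which removes misfolded proteins, 3 were lower and 0 higher in KO HFD (median -0.22), against 6.24% of all genes lower and 1.52% higher. Sel1l and Syvn1 encode the adaptor and the ubiquitin ligase of the central complex. Sel1l was at 10.7, 11.1 and 11.2 FPKM in KO HFD, against 24.3, 26.2 and 15.9 FPKM in KO chow (-0.92, SE 0.17, adjusted p = 0.0334). Syvn1 was at 11.2, 9.64 and 11.6 FPKM in KO HFD, against 22.2, 23.4 and 17.0 FPKM in KO chow (-0.88, SE 0.16, adjusted p = 0.0334). Edem3, which trims mannose from misfolded glycoproteins, was at 2.90, 3.16 and 2.64 FPKM in KO HFD, against 8.47, 6.26 and 5.22 FPKM in KO chow (-0.95, SE 0.17, adjusted p = 0.0306). For these 3 genes, named because they passed, every KO HFD library lay below every KO chow library, as for 21.6% of all genes. The abundant Vcp and Os9, the ATPase that extracts substrates and a lectin that recognises them, did not pass. Vcp averaged 81.4 ± 5.46 FPKM in KO HFD and 95.1 ± 8.21 FPKM in KO chow, and Os9 73.2 ± 8.34 FPKM and 84.3 ± 12.0 FPKM in the same order (SD, n = 3 each).

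Of 13 sensors, eIF2 kinases and their partners, 2 were lower and 0 higher in KO HFD (median -0.28), beside the same 6.24% and 1.52% of all genes. By limma-voom 4 were called, where 1212 of all 12251 genes were (1005 lower, 207 higher). Ern1, the Ire1 sensor that splices Xbp1 mRNA, was at 4.15, 4.26 and 4.18 FPKM in KO HFD, against 10.3, 10.9 and 8.31 FPKM in KO chow (-1.05, SE 0.14, adjusted p = 0.0146). WT HFD, at 7.65, 5.91 and 6.72 FPKM, and WT chow 1, at 6.54 FPKM, lay between them. Ppp1r15b, a subunit of the phosphatase that resets eIF2, was at 13.7, 16.0 and 14.3 FPKM in KO HFD, against 30.9, 24.5 and 26.0 FPKM in KO chow (-0.84, SE 0.14, adjusted p = 0.0290). Eif2ak3, the Perk sensor, was at 2.32, 3.62 and 2.12 FPKM in KO HFD and 4.57, 5.19 and 2.79 FPKM in KO chow, and Atf6 at 5.94, 6.39 and 7.12 FPKM and 12.0, 12.8 and 7.76 FPKM in the same order. Neither passed, and both are given for their place in the pathway, outside the rule for named genes. Creb3l3, the most abundant of the list and a membrane-bound factor of liver, averaged 206 ± 20.6 FPKM in KO HFD and 169 ± 36.0 FPKM in KO chow (SD, n = 3 each) and did not pass.

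**Figure D2:**
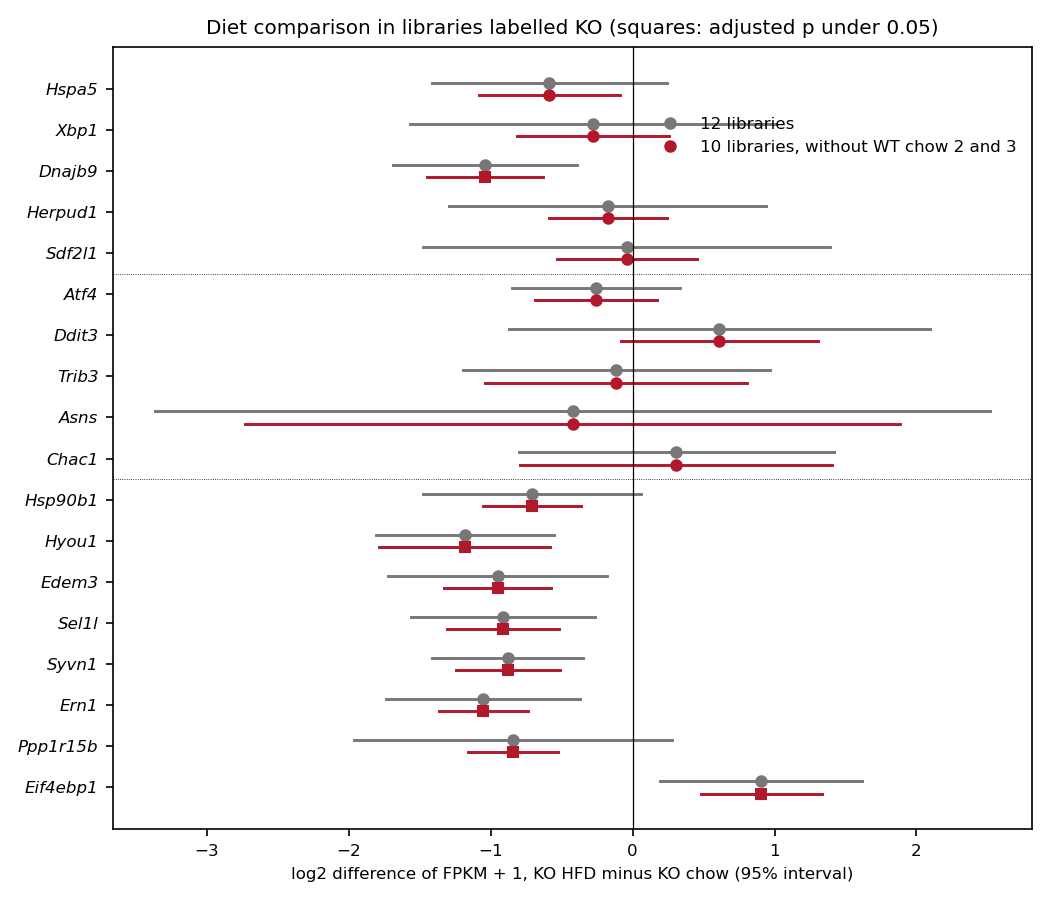
Log2 differences in FPKM + 1 between KO HFD and KO chow with 95% intervals, for the 10 members (above the second dotted line) and the 8 other listed genes past the threshold with 10 libraries. Each pair of bars shares its point and differs in width: squares, all from the fit with 10 libraries, mark Dnajb9 and the 8 genes below the second line.

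None of these 8 calls and of Dnajb9 was made with 12 libraries, and within the 10 each was lost in some fits with 1 library left out. In the fit of the KO HFD and KO chow libraries alone, 0 of the 9 genes passed, with an adjusted p from 0.0665 for Ern1 to 0.102. Leaving out each of the 10 in turn, Ern1 was called in 8 of 10 fits, Edem3 and Ppp1r15b in 4, Dnajb9, Syvn1 and Eif4ebp1 in 3 and Hsp90b1, Hyou1 and Sel1l in 2. Calls over all genes moved too, from 951 with the 10 to between 17 without KO chow 2 and 1535 without KO chow 3. They were 31, 30 and 113 without WT HFD 1, 2 and 3, whose values do not enter the difference, only its error. Dnajb9 had an adjusted p of 0.128 without KO chow 1, 0.142 without KO chow 2, 0.0632 without KO HFD 1, 0.0643 without KO HFD 3, and 0.0569, 0.0645 and 0.0509 without WT HFD 1, 2 and 3. Its log2 difference stayed between -1.22 and -0.86 in these fits. KO chow 1 was the highest library for Hspa5, Dnajb9, Hyou1, Hsp90b1 and Edem3, and KO chow 3 the lowest of its group for Hspa5, Dnajb9, Hyou1, Hsp90b1, Edem3, Sel1l, Syvn1 and Ern1. The pancreatic acinar sum was 45.2 to 78.0 FPKM in KO HFD, against 0.357 to 0.736 FPKM in KO chow, and the hepatocyte sum 32051 to 46472 FPKM against 41123 to 41879 FPKM. The part of either in the lower values was not tested. In bulk samples, fewer cells of a type and less RNA per cell cannot be told apart.

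Between KO and WT on the high fat diet, 0 of 10 members passed with 12 or with 10 libraries. Among all genes 0.155% passed with 12 libraries and 0.18% with 10, all of them higher in KO. Of the members, 0 had an unadjusted p under 0.05 with 12 libraries and 1, Sdf2l1, with 10, where 12.5% of all genes did, and limma-voom on the recovered reads also called 0. Sdf2l1 stood at 27.4, 29.8 and 25.1 FPKM in KO HFD, against 12.9, 18.9 and 21.2 FPKM in WT HFD. It was the only member whose libraries did not overlap, where 19.8% of all genes did not (7.37% higher in KO, 12.4% lower). The Sdf2l1 log2 difference was 0.63 (10 libraries, SE 0.22, 95% interval 0.14 to 1.12, adjusted p = 0.369). Manf, a secreted stress protein of the same compartment named here after its values were seen, was at 79.2, 65.1 and 73.8 FPKM in KO HFD, against 33.8, 49.3 and 44.3 FPKM in WT HFD. Neither passed, with an adjusted p of 0.369 for both genes with 10 libraries and of 1 for both with 12. The lists went both ways. Of 16 chaperones and folding enzymes 4 were higher in KO HFD without overlap and 0 lower. Of 15 degradation genes 1 was higher and 3 lower, and of 13 sensors and eIF2 kinases 1 was higher and 5 lower. Over the same libraries the acinar sum was 45.2 to 78.0 FPKM in KO HFD and 0.481 to 0.733 FPKM in WT HFD. The hepatocyte sum was 32051 to 46472 FPKM in KO HFD and 54664 to 62004 FPKM in WT HFD, also without overlap, and the part of either in these values was not tested.

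Dnajb9 and Xbp1 were close to equal between genotypes on this diet. The Dnajb9 mean was 21.4 ± 1.80 FPKM in KO HFD and 21.2 ± 2.19 FPKM in WT HFD (SD, n = 3 each), with a 95% interval of the log2 difference from -0.40 to 0.42. That of Xbp1 ran from -0.53 to 0.54. Herpud1 was at 145, 220 and 149 FPKM in KO HFD, against 214, 211 and 197 FPKM in WT HFD, so KO HFD held both the highest and the lowest of the 6 values (log2 difference -0.30, -0.72 to 0.11). Hspa5 differed by 0.27 (-0.23 to 0.76). All 4 intervals include 0.

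The 5 Atf4-branch members separated neither by genotype on the high fat diet nor by diet in KO. Atf4 itself was the steadiest of them, at 42.5, 39.8 and 41.8 FPKM in KO HFD, 42.9, 37.7 and 30.2 FPKM in WT HFD and 46.7, 40.2 and 64.9 FPKM in KO chow. The groups overlapped in both comparisons, with a log2 difference of 0.17 (95% interval -0.26 to 0.60, 10 libraries) for KO against WT on the high fat diet and -0.26 (-0.69 to 0.17) for diet in KO. Ddit3, which encodes Chop, was at 20.3, 10.4 and 6.90 FPKM in KO HFD, 8.90, 9.33 and 7.63 FPKM in WT HFD and 7.09, 5.995 and 8.54 FPKM in KO chow. KO HFD 1 was the highest of the 10 libraries, and without it the log2 difference between KO HFD and WT HFD is -0.013, against 0.38 with it. A stretch of 68 bases of the Ddit3 gene model overlaps Mars on the other strand, and the strand setting of the counting is not given in the sources used here. Mars stood at 16.3 to 23.5 FPKM in the 10 libraries. In the same way 535 bases of Herpud1 overlap the antisense gene Gm15890, which averaged 0.670 FPKM.

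Trib3, Asns and Chac1, targets of Atf4 and Chop, varied most between libraries of 1 group. Trib3, a pseudokinase that dampens Atf4 and Akt signalling, was at 7.51, 4.15 and 1.90 FPKM in KO HFD, 3.51, 4.88 and 3.12 FPKM in WT HFD and 2.57, 7.73 and 4.18 FPKM in KO chow. Its KO HFD values lay on both sides of the WT HFD values, with a log2 difference of 0.073 (95% interval -0.85 to 1.0, 10 libraries) against WT HFD and -0.11 (-1.04 to 0.81) against KO chow. Chac1, an enzyme that degrades glutathione, was at 1.65, 2.10 and 4.81 FPKM in KO HFD, 7.28, 1.29 and 1.63 FPKM in WT HFD and 1.70, 3.10 and 1.28 FPKM in KO chow. WT HFD 1 held the highest Chac1 value of all 12 libraries with its group mates among the lowest, and the differences were -0.022 (-1.12 to 1.08) against WT HFD and 0.31 (-0.79 to 1.4) against KO chow.

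Asns, which makes asparagine and is a standard readout of amino acid shortage, spread 35.4-fold over the 10 libraries, from 0.709 FPKM in WT HFD 2 to 25.1 FPKM in KO chow 2. It was at 1.70, 6.16 and 7.25 FPKM in KO HFD, 1.79, 0.709 and 19.3 FPKM in WT HFD, 1.54, 25.1 and 4.80 FPKM in KO chow and 4.04 FPKM in WT chow 1. Each group of 3 held a library below 2 FPKM, and the high values did not gather in any group. The within-group SD of Asns was 1.55 on the log2(FPKM + 1) scale, above 99.8% of the genes tested, against a median of 0.22 for all genes. Chac1 (SD 0.73) exceeded 97.0% of genes, Trib3 (0.60) 95.2% and Ddit3 (0.44) 89.4%. The unfolded protein genes and Atf4 were nearer the median, from 0.22 for Herpud1 to 0.32 for Xbp1. At the Asns spread, the interval of its difference between KO HFD and WT HFD ran from -2.07 to 2.55, so changes of several fold in either direction were not detectable.

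**Figure D3:**
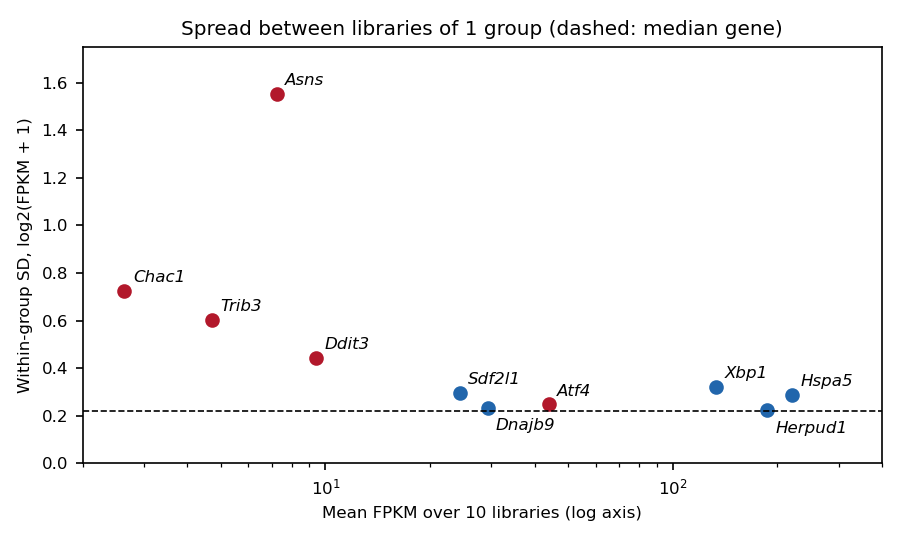
Within-group SD of log2(FPKM + 1) over 10 libraries against mean FPKM (log axis), for the unfolded protein genes (blue) and the Atf4-branch genes (red), with the median of all genes tested at 0.22 as a dashed line. Asns, at 1.55, lies far above genes of like level such as Ddit3 at 0.44.

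Of the 10 libraries, those with the most Asns differed in the other Atf4-branch members. KO chow 2 and WT HFD 3, with 25.1 and 19.3 FPKM of Asns, had 40.2 and 30.2 FPKM of Atf4, in each case the lowest of the group. Trib3 and Chac1 were at 7.73 and 3.10 FPKM in KO chow 2, the highest of the KO chow libraries. In WT HFD 3 they were at 3.12 and 1.63 FPKM, which for Trib3 was the lowest of the WT HFD libraries. Outside the 10, WT chow 3 had the most Asns, at 53.9 FPKM, together with the highest Atf4 (68.1 FPKM) and Trib3 (26.3 FPKM) of the 12. Psat1 and Mthfd2, Atf4 targets of serine and folate metabolism named after their values were seen, were at 0.376 and 0.708 FPKM in KO chow 2 and at 0.891 and 0.982 FPKM in WT HFD 3. Over the 10 libraries, correlations of log2 levels among the 10 pairs of Atf4-branch members ran from -0.49 to 0.42 with a median of -0.06. Those among the 10 pairs of unfolded protein genes ran from -0.41 to 0.87 with a median of 0.17, and those of the 25 pairs across both sets from -0.53 to 0.50. The highest were Hspa5 with Dnajb9 (r = 0.87) and Hspa5 with Sdf2l1 (r = 0.74). These ranges and this order hold for the 10 libraries only. With 12 the same 2 pairs were at 0.45 and 0.77, Xbp1 with Herpud1 was the highest at 0.89 (-0.20 with 10), and Ddit3 with Trib3 came to 0.75. These libraries share groups, so the values describe them and carry no test.

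The genes whose pattern over the 10 libraries was most like each member were taken by Pearson's r of log2(FPKM + 1). The search covered the protein-coding genes among those tested, with predicted and clone-named genes left out. For Hspa5 they were Pdia4 (r = 0.97), a disulfide isomerase of the same compartment, Ubxn4 (0.96) and Srp68 (0.95). For Sdf2l1 they were Pdia3 (0.91), another disulfide isomerase, Slc35b1 (0.90) and Tmed10 (0.89). With 12 libraries these stayed between 0.79 and 0.97. For Dnajb9 they were Nfxl1 (0.97), Usp6nl (0.96) and Ccdc97 (0.96), and for Xbp1 Socs2 (0.96), Aacs (0.94) and Zfp623 (0.90). With 12 libraries the Dnajb9 genes came to 0.75, 0.76 and 0.64, and the Xbp1 genes to 0.68, -0.11 and 0.93, in the same order. For Herpud1 they were Ndel1 (0.93), Bdh1 (0.90) and Ndufaf4 (0.90), which came to 0.40, 0.99 and -0.24 with 12 libraries. Among the Atf4-branch members, Atf4 lay nearest to Ube2q1 (0.92), Caml (0.90) and Yrdc (0.89), and genes near Ddit3 included Mrps9 (0.97) and Chchd3 (0.96). Trib3 lay nearest to H2-Q6 (0.93), Smarcd1 (0.92) and Pml (0.91), Asns to Hc (0.91), Mpeg1 (0.89) and Mt1 (0.89), and Chac1 to Qpctl (0.84), Apeh (0.81) and Gja4 (0.80). With 12 libraries the r of the genes nearest to these 5 members ran from -0.45 for Hc with Asns to 0.96 for Smarcd1 with Trib3.

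Downstream of Atf4, the diet comparison in KO called 1 gene of 11 stress factors and hormones with 10 libraries, Eif4ebp1, and it was higher, as were 1.52% of all genes. Eif4ebp1, an inhibitor of cap-dependent translation, was at 102, 73.8 and 82.8 FPKM in KO HFD, against 43.2, 37.2 and 57.2 FPKM in KO chow (log2 difference 0.91, SE 0.19, adjusted p = 0.0358). Its groups did not overlap, where 9.98% of all genes were higher without overlap. WT HFD, at 77.9, 60.7 and 68.1 FPKM, reached into the KO HFD range. The list's median was 0.31. Atf5, its most abundant gene, averaged 108 ± 10.7 FPKM in KO HFD and 111 ± 4.95 FPKM in KO chow (SD, n = 3 each). Of 14 genes of amino acid synthesis and transport, 0 passed in either direction (median -0.13), 2 had an unadjusted p under 0.05, as did 29.2% of all genes, and limma-voom also called 0. Their most abundant, Cth and Gpt2, averaged 112 ± 33.8 and 94.6 ± 35.7 FPKM in KO HFD, against 144 ± 33.6 and 121 ± 8.88 FPKM in KO chow. Between KO and WT on the high fat diet 0 genes of these 5 lists passed with 12 or 10 libraries by limma or by limma-voom. With 10 libraries 3 chaperones and folding enzymes, 1 gene of the degradation list, 2 sensors and 0 genes of both Atf4-target lists had an unadjusted p under 0.05, against 12.5% of all genes.

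KO HFD 1 held Ddit3 and some targets of Atf4 well above its group mates, but not Atf4, Asns or Chac1. Beside Ddit3 at 20.3 FPKM, it held 15.0 FPKM of Psat1, against 0.279 and 0.0649 FPKM in KO HFD 2 and 3. Nupr1, a stress-induced chromatin protein, was at 4.80 FPKM there, against 0.682 and 0.694 FPKM. Pck2, a mitochondrial enzyme of glucose synthesis, was at 5.06 FPKM, against 1.26 and 0.850 FPKM. Asns, at 1.70 FPKM, and Chac1, at 1.65 FPKM, were the lowest of KO HFD in the same library, and Atf4 was at 42.5 FPKM, against 39.8 and 41.8 FPKM. In KO HFD 1, 3 of 14 genes of amino acid synthesis and transport and 3 of 11 stress factors and hormones lay more than 1 log2 unit above the median of the 10 libraries, as did 5.49% of all genes. Its acinar sum, 78.0 FPKM, was the highest of the 12, and its median correlation with the others, 0.948, the lowest of the 10. Psat1, Nupr1 and Pck2 were named after their values were seen.

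**Figure D4:**
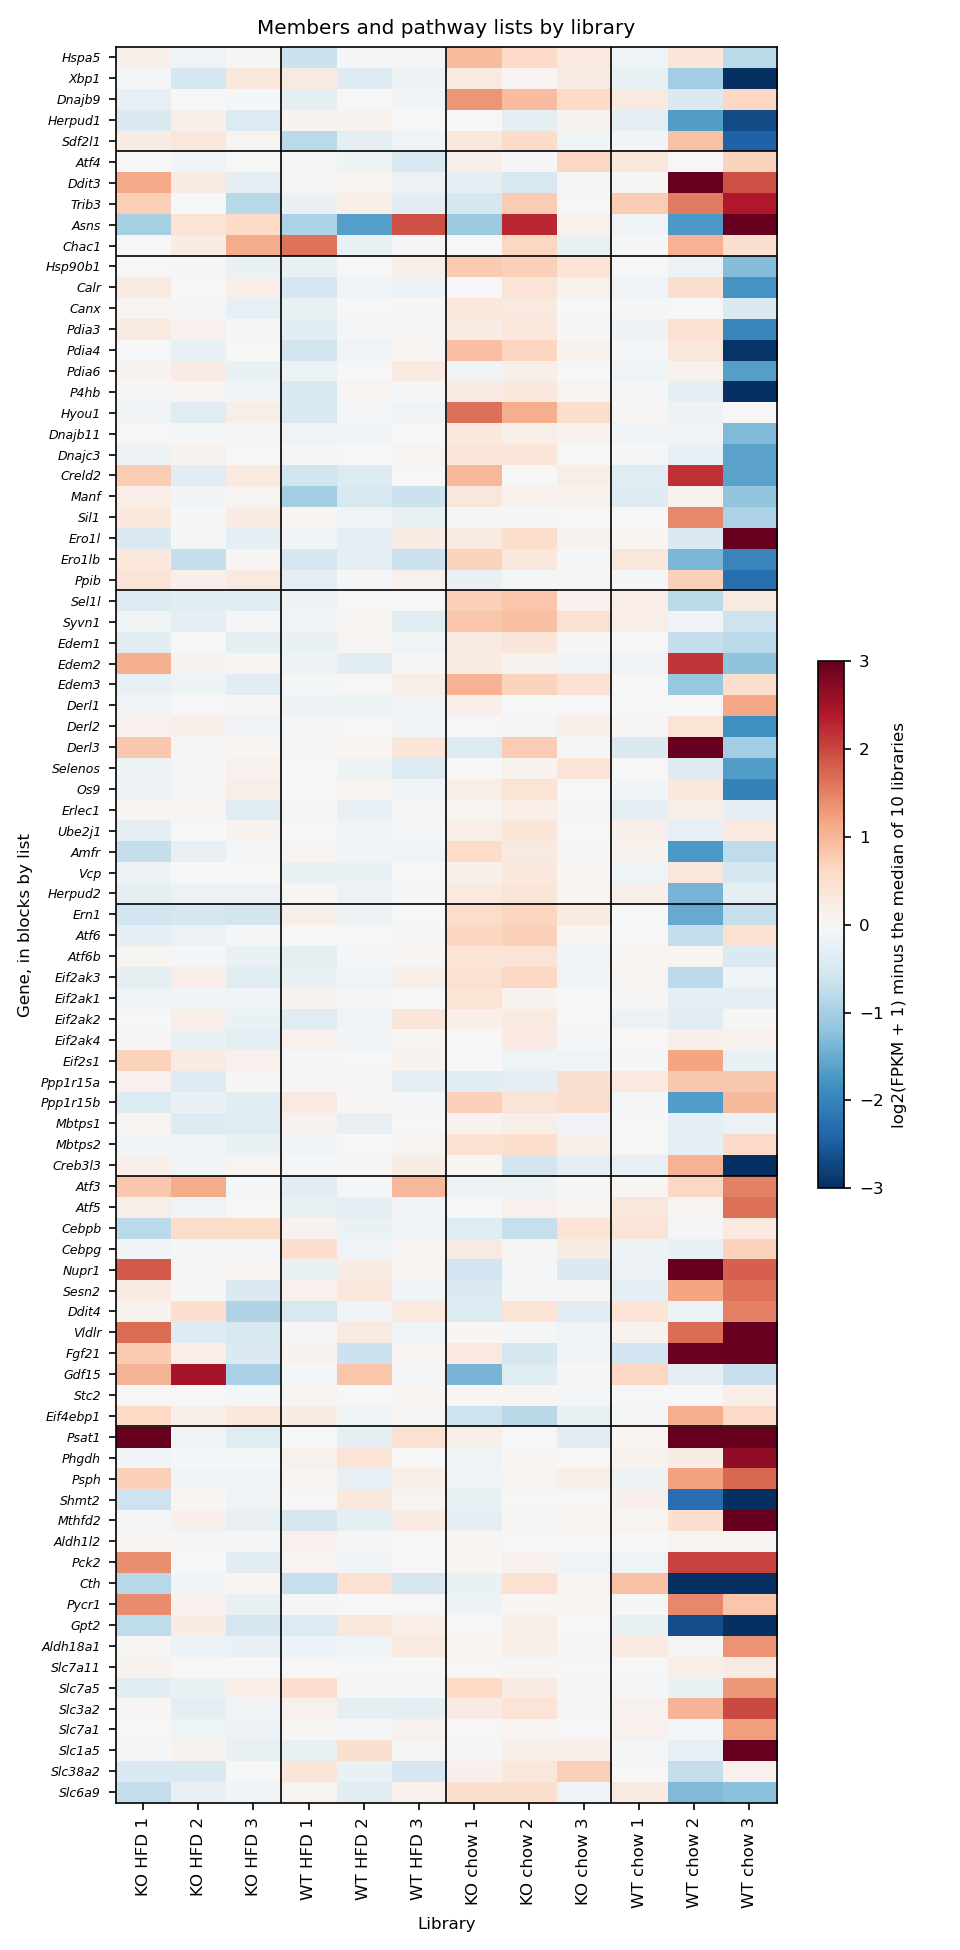
Log2(FPKM + 1) of the members and 5 pathway lists in each library, minus the median of the 10 libraries without WT chow 2 and 3, with colours cut at 3 in either direction. WT chow 2 and 3 differ from the other columns in most blocks, and KO chow 1 and 2 are above the median in most rows of the chaperone, degradation and sensor blocks.

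The libraries that stand apart held the extreme values of most members, and each its own set. WT chow 2, in which hepatocyte markers summed to 20142 FPKM, held 100 FPKM of Ddit3, 14.2 FPKM of Trib3 and 43.9 FPKM of Sdf2l1, with Herpud1 at 60.9 and Asns at 0.632 FPKM. Derl3 and Creld2, a degradation factor and a folding factor that unfolded proteins induce, were at 29.6 and 90.7 FPKM there, against 1.22 to 4.25 and 12.3 to 38.4 FPKM in the other 10. Psat1, at 22.9 FPKM, and Fgf21, a hormone that Atf4 induces in liver, at 17.3 FPKM, were also high. Derl3, Creld2, Psat1 and Fgf21 were named after their values were seen, and their lists did not all lean the same way. In WT chow 2, 2 of 16 chaperones and folding enzymes lay more than 1 log2 unit above the median of the 10 libraries and 1 below. Of 15 degradation genes 2 lay above and 3 below, of 14 amino acid genes 5 and 4, and of 11 stress factors and hormones 5 and 0. Among all genes 16.3% lay above and 14.3% below. Dnajb9, at 16.6 FPKM, had its lowest value of the 12 there. Mars, whose gene model overlaps 68 of the 969 bases of Ddit3, was at 44.2 FPKM, its highest value. Reads of the overlap may belong to either gene, and Ddit3 had 1834 reads in this library.

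WT chow 3, with 28.7 FPKM of hepatocyte markers, held 53.9 FPKM of Asns, 35.8 FPKM of Ddit3 and 26.3 FPKM of Trib3. Xbp1, at 15.8 FPKM, Herpud1, at 30.1, and Sdf2l1, at 3.56, had their lowest values there. Of 16 chaperones and folding enzymes, 12 lay more than 1 log2 unit below the median of the 10 libraries, as did 19.4% of all genes. Fgf21 stood at 32.9 FPKM and Slc1a5, a glutamine transporter, at 68.5 FPKM, against 0.484 to 1.39 FPKM of Slc1a5 in the 10, and both were named after their values were seen. Dnajb9, at 36.0 FPKM, was not low there. Genes of the mitochondrial genome took 37.5% of reads in WT chow 3, against 3.39% to 6.26% elsewhere. The part of this share in the values above was not tested. How much of these values is tissue and how much is state cannot be told apart from a single library.

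Comparisons with WT chow rest on these libraries. Between KO and WT on chow, 0 of 10 members passed with 12 libraries (0% of all genes, 2584 of which had an unadjusted p under 0.05), limma-voom also called 0, and 5 members had an unadjusted p under 0.05. In 4 of 10 members the groups did not overlap, against 16.8% of all genes (12.4% higher in KO, 4.43% lower): Xbp1 and Herpud1 were higher in KO, Ddit3 and Trib3 lower. Xbp1 averaged 152 ± 12.3 FPKM in KO chow and 64.0 ± 48.3 FPKM in WT chow, and Herpud1 191 ± 24.8 FPKM and 83.9 ± 68.3 FPKM in the same order (SD, n = 3 each). Ddit3 averaged 7.21 ± 1.28 FPKM in KO chow and 48.4 ± 47.0 FPKM in WT chow, and Trib3 4.82 ± 2.64 FPKM and 16.1 ± 9.42 FPKM in the same order. The log2 differences were 1.61 (SE 0.58) for Xbp1, 1.5 (SE 0.51) for Herpud1, -2.03 (SE 0.67) for Ddit3 and -1.5 (SE 0.49) for Trib3, with adjusted p of 0.196 for Xbp1 and 0.195 for the others.

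Without WT chow 2 and 3 these differences came to 0.42 for Xbp1, 0.24 for Herpud1, -0.28 for Ddit3 and -0.69 for Trib3, all over 1.5 times smaller. Without WT chow 1, the WT chow library closest to the other groups (median correlation 0.979), all 4 were called, at 2.21, 2.12, -2.91 and -1.90 (adjusted p from 0.00199 to 0.0200). In that fit 24.3% of all genes passed (16.6% higher, 7.76% lower), beside these 4 of 10 members. WT chow 1 held 112 FPKM of Xbp1, 161 of Herpud1, 8.92 of Ddit3 and 7.75 of Trib3, each outside the KO chow range. With 10 libraries Hspa5 (0.73, SE 0.31) and Dnajb9 (0.68, SE 0.26) were higher in all 3 KO chow libraries than in WT chow 1, with an adjusted p of 1 for both, and 0.00816% of genes passed. With 1 WT chow library 6 of 10 members did not overlap (4 higher in KO, 2 lower), as did 52.1% of all genes (34.3% higher, 17.8% lower).

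For diet in WT, 0 of 10 members passed with 12 libraries (0% of all genes, 1807 with an unadjusted p under 0.05), limma-voom also called 0, and 4 members had an unadjusted p under 0.05. Herpud1, at 214, 211 and 197 FPKM in WT HFD, against 161, 60.9 and 30.1 FPKM in WT chow, and Trib3, at 3.51, 4.88 and 3.12 FPKM, against 7.75, 14.2 and 26.3 FPKM, were the members without overlap, as were 11.2% of all genes (6.82% higher, 4.35% lower). The log2 differences were 1.62 (SE 0.51) for Herpud1 and -1.68 (SE 0.49) for Trib3, with an adjusted p of 0.307 for both. They came to 0.36 and -0.87 without WT chow 2 and 3, and both were called without WT chow 1, at 2.25 and -2.09. That fit also called Xbp1 (1.93) and Ddit3 (-2.67), so 4 of 10 members, with 19.9% of all genes (13.1% higher, 6.73% lower). Dnajb9, called for diet in KO, differed here by -0.26 (SE 0.29), and by -0.38 (SE 0.26) with 10 libraries.

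The difference between the diet effects in KO and in WT was tested as an interaction, and 0 of 10 members passed with 12 libraries (0.122% of all genes) or with 10 (0.0816%). With 12 libraries 3 members, Herpud1, Ddit3 and Trib3, had an unadjusted p under 0.05 (16.6% of all genes), and with 10 libraries 0, and limma-voom called 0 members. The Dnajb9 interaction was -0.66 with 10 libraries (SE 0.32, adjusted p = 0.502) and -0.78 with 12 (SE 0.41, adjusted p = 0.340). The lower Dnajb9 on the high fat diet was thus not shown to differ between KO and WT. The Ddit3 interaction was 2.41 with 12 libraries (SE 0.95, adjusted p = 0.291) and 0.66 with 10. That of Herpud1 was -1.80 with 12 libraries (SE 0.71, adjusted p = 0.291) and -0.54 with 10. Without WT chow 1 both were called, at 3.28 and -2.42, or 2 of 10 members, with 18.5% of all genes (5.24% higher, 13.2% lower).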

How the data were processed

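RNA was sequenced from 12 samples given as liver. The deposited table holds FPKM (fragments scaled to gene length and to library depth) for 35275 genes, a unit the authors calculated. The submitters' processing notes list these tools without roles: CASAVA, TopHat, STAR, HTSeq (0.6.1) and DESeq2 (2). They name mm10 and GRCm38. Which tool made the FPKM, and with which annotation and strand setting, is not given in the sources used here. Multiplying by gene length, and dividing by a step fitted for each library to its low values, gave whole reads for 100% of nonzero values (tolerance 0.1 read).

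Values were taken as log2(FPKM + 1), which understates changes of low genes. Genes averaging 0.5 FPKM or more (12251) entered 1 limma fit (limma 3.58.1, R 4.3.3, trended empirical Bayes) of 12 libraries with 4 group means and 5 contrasts, Benjamini-Hochberg adjusted over all 12251 with a threshold of 0.05. Single genes were also compared by exact two-sided permutation of FPKM. Alternatives covered the pseudocount, filters, TPM and median-of-ratios scaling, limma-voom on the recovered reads, only the groups compared, a replicate block, and libraries left out. Replicates are called biological by the series, and their animals are not described.

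The members and the lists were chosen with earlier results of these data known. From each list were named the genes past the threshold with 12 libraries, up to 4 per comparison past it with 10, and the 2 most abundant; other names are said to be chosen after their values were seen. Of the 3 genes with the pattern most like each member, 1 is not reported here. Figures were drawn with matplotlib 3.10.9. Promoters are RefSeq GRCm38.p6; 0 columns of values were left unmapped. Coordinates are 1-based.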

Additional observations from a re-analysis of the deposited data

How the results depend on the processing

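The members called numbered 0 in each of the 5 comparisons under every setting that kept all 12 libraries. For the 4 comparisons of 2 groups they were 0 as well where only the 6 libraries compared were fitted, which called 20 genes for diet in KO and 15 for KO against WT on the high fat diet. The lone Dnajb9 call of the diet comparison in KO was made with 10 libraries, and there also at a pseudocount of 0.1 and by voom (1 member each), while TPM called 2, adding Hspa5 (log2 difference -0.78, adjusted p = 0.0461) as the median of all genes moved to -0.23. Other TPM medians were -0.13 for KO against WT on the high fat diet, 0.25 on chow, 0.12 for diet in WT and -0.37 for the interaction, against -0.10 to 0.08 as deposited. Calls over all genes for diet in KO were 19, and 31 without a filter, 3 at a mean FPKM of 2, 12 by voom, and with 10 libraries 951, or 1038 at pseudocount 0.1, 2231 by TPM and 1212 by voom. For KO against WT on the high fat diet 19 became 3 at a mean FPKM of 2. On chow 0 became 4 without a filter and 1 or 2 with 10 libraries, and for diet in WT 1 or 2 with 10. For the interaction 15 became 6 at pseudocount 0.1, 25 without a filter, 1 at a mean FPKM of 2, 0 by voom, and 2 by voom with 10.

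Leaving out 1 library, from 12 or from the 10, gave 14 to 1535 genes for diet in KO, 0 to 2435 for diet in WT, 16 to 26 for KO against WT on the high fat diet, 0 to 2981 on chow and 5 to 2265 for the interaction, with 0 to 1, 0 to 4, 0 to 0, 0 to 4 and 0 to 2 members. The highest counts with WT chow and the interaction came without WT chow 1.

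Same-numbered libraries showed no shared deviation (correlations of -0.50 to 0.13 over 12 libraries), where differently numbered ones ran from -0.25 to 0.50. Deviations were taken from means of 3 libraries, so this check cannot exclude a pairing. A replicate block gave 4 genes for the interaction, or 3 with 10 libraries, 31 for diet in KO with 10 libraries and 1 each for KO against WT on chow and for diet in WT with 10. Dnajb9 then had an adjusted p of 0.0539.

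Small differences, none of them called, turned sign. For KO against WT on the high fat diet TPM gave -0.11 for Dnajb9, -0.12 for Xbp1 and -0.036 for Trib3, and Chac1 came to 0.030 at a pseudocount of 0.1 and 0.022 by median-of-ratios. With 1 library left out this comparison ran from -0.47 to 1.31 for Asns, -0.36 to 0.56 for Chac1, -0.013 to 0.70 for Ddit3, -0.067 to 0.080 for Dnajb9, -0.31 to 0.47 for Trib3 and -0.20 to 0.22 for Xbp1. The diet comparison in KO ran from -1.18 to 0.50 for Asns, -0.033 to 0.55 for Chac1, -0.23 to 0.12 for Sdf2l1, which was 0.078 by median-of-ratios, and -0.49 to 0.28 for Trib3. For diet in WT Sdf2l1 ran from -0.81 to 0.84 and was 0.13 with 12 libraries, against -0.32 with 10, -0.34 at pseudocount 0.1, -0.31 by TPM, -0.35 by voom and -0.43 with the block. The cause was not tested.

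With 3 libraries a group, and 1 left in WT chow, whose spread is then assumed like that of the others, changes of the size seen for Hspa5 did not pass. Asns varied too much between libraries for any change under several fold to show.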

Other observations

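Of 12 aminoacyl-tRNA synthetases, several of them Atf4 targets, 0 passed in the diet comparison in KO or between KO and WT on the high fat diet, with 12 or 10 libraries by limma. With 10 libraries 2 had an unadjusted p under 0.05 for diet in KO (29.2% of all genes) and 0 between genotypes (12.5%). There limma-voom called 1 for diet in KO, where it called 1212 of all 12251 genes (1005 lower, 207 higher). The median log2 difference of the synthetases was -0.14 for diet in KO and 0.18 for KO against WT on the high fat diet, against -0.059 and -0.029 for all genes. In WT chow 2, 5 of the 12 lay more than 1 log2 unit above the median of the 10 libraries and 0 below, as did 16.3% of all genes above. Aars and Nars, the most abundant, averaged 37.2 ± 7.66 and 37.1 ± 2.54 FPKM in KO HFD, against 42.4 ± 4.78 and 44.4 ± 4.42 FPKM in KO chow (SD, n = 3 each).

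Of 10 cytosolic heat shock genes tested, which answer misfolding outside the endoplasmic reticulum, 0 passed in the same comparisons by limma or limma-voom, and 2 in each had an unadjusted p under 0.05 with 10 libraries, against the same 29.2% and 12.5% of all genes. The medians were -0.054 for diet in KO and 0.12 for KO against WT on the high fat diet. Hspa8 and Hsp90ab1 averaged 331 ± 94.3 and 317 ± 88.9 FPKM in KO HFD, against 230 ± 78.2 and 293 ± 19.0 FPKM in KO chow. With 10 libraries all 10 genes were higher in the 3 KO chow libraries than in WT chow 1, and 34.3% of all genes were. That comparison rests on 1 WT chow library.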
